A study of Mus musculus with 10 samples.

Results

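The glucocorticoid response genes described here are Fkbp5, Tsc22d3, Sgk1, Klf9, Zbtb16 and Ddit4, 6 genes that glucocorticoids commonly induce. They were taken by gene symbol from a deposited table of 25178 genes, with clock genes and immediate early genes left out of the choice, and all 6 were found. The samples were lineage-depleted bone marrow cells, labelled as hematopoietic stem and progenitor cells, from 5 female and 5 male C57/BL6 mice at steady state. Marrow was flushed from 1 hindlimb of each mouse, cells bound by magnetic beads for lineage removal were set aside, and the RNA of the remainder was sequenced with 1 library per mouse. No treatment or altered genotype is stated. The age of the mice, the hour of collection and the lineage antibodies are given in none of the sources used here. The study asks how hematopoiesis differs between the sexes, and the question here is whether these response genes differed between female and male mice.

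Glucocorticoids are steroid hormones of the adrenal cortex, of which corticosterone is the main one in mice. They bind the glucocorticoid receptor, the product of Nr3c1, which is held in the cytoplasm by heat shock proteins and their co-chaperones. After binding hormone the receptor moves to the nucleus and binds DNA at palindromic response elements. In bone marrow the hormone is known for killing lymphoid precursors, for releasing neutrophils into the blood and for supporting erythroid progenitors under stress. The 6 genes act at different steps. Fkbp5 encodes a co-chaperone that lowers the receptor's affinity for hormone and so closes a feedback loop. Tsc22d3 encodes GILZ, a leucine zipper protein that restrains inflammatory transcription factors. Klf9 and Zbtb16 (PLZF) encode zinc finger transcription factors, of which PLZF also acts in stem cells and in innate-like lymphocytes. Sgk1 encodes a serine/threonine kinase related to AKT, and Ddit4 (REDD1) encodes a stress-induced inhibitor of the growth kinase complex mTORC1.

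A receptor element in its full palindromic form was found at Sgk1, 1 of the 5 genes that could be searched. The stretch that holds this element is shown with 3 stretches that hold only its core, so that the full and partial forms can be compared. RefSeq promoter windows on GRCm38.p6, from 250 bases before to 50 after a transcript start, were matched by symbol for 5 of the 6 genes. There were 12 windows in all, 6 for Sgk1, 3 for Tsc22d3 and 1 each for Fkbp5, Klf9 and Ddit4. Zbtb16 had 0 windows and was not searched. The full motif, AGAACA followed by any 3 bases and TGTTCT, searched on both strands, was present in 3 of 32851 windows (0.00913%), and 1 of those 3 is a start of Sgk1. A looser form, GNACA followed by any 3 bases and TGTNC, which contains the full one, was found in 0.475% of windows and at the same Sgk1 start only. The 6-base core AGAACA, which the full motif contains in both orientations, was found in 19.0% of windows and in 4 of the 12 member windows, at Sgk1 and Tsc22d3. In the lines that follow, capitals mark the match and the strand is that of the gene.
Sgk1, chr10:21993681-21993735, plus strand, full motif: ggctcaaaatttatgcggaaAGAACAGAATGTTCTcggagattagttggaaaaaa
Sgk1, chr10:21881969-21882014, plus strand, core: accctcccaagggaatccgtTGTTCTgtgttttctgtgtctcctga
Sgk1, chr10:21992190-21992222, plus strand, core: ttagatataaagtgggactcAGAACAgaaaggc
Tsc22d3, chrX:140600682-140600727, minus strand, core: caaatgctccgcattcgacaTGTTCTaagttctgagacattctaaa
The full Sgk1 match covered bases 189 to 175 before the start at position 21993890. The same window held 1 further core, 242 bases before the start and outside the stretch shown. The stretch lies inside the annotated Sgk1 gene and overlaps no exon of it in GENCODE vM21. No window of Fkbp5, Klf9 or Ddit4 held any of these motifs. A match describes letters in a window and does not show that the receptor was bound there.

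The libraries held between 20754101 and 24759687 counts. Of the 25178 genes, 14674 passed the filter on low counts and were tested, all 6 response genes among them. Levels are given as CPM, the count relative to the library's scaled total. The libraries of male replicates 1 and 2 differed most from the rest. Male replicate 1 had 8729 summed CPM over 10 neutrophil markers, against 211 to 2698 in the others. In male replicate 2, deviations from the gene means fell with exon length (rank correlation across genes -0.506, against -0.297 to 0.369 in the others), and its scaling factor was 0.886 against 0.964 to 1.05. The rank correlation with length was positive in all 5 females (0.0429 to 0.328). In male replicates 1, 3, 4 and 5 it was -0.146, -0.297, 0.369 and 0.289. Summed erythroid markers were lower in all females (4292 to 8616 CPM) than in all males (10585 to 47286 CPM), and summed megakaryocyte and platelet markers higher in all females (1748 to 2322 CPM) than in all males (1322 to 1596 CPM). Of the 9 erythroid markers 7 had a negative and 2 a positive fold change (48.0% of all genes tested were positive). For 5 of the 9 all females lay below all males, as in 0.865% of all genes tested. The 9 tested megakaryocyte and platelet markers all had a positive fold change. For 3 of them all females lay above all males, as in 1.06% of all genes tested. S100a9 and Ngp led the neutrophil sum and Hba-a1 and Hba-a2, the alpha globin genes, the erythroid sum. Summed B lineage markers were at 10.5 to 15.3 CPM in females and 14.3 to 45.1 in males, mast cell and basophil markers at 881 to 1693 and 1452 to 2140, and stroma markers at 320.03 to 2440 and 362 to 2754. None of the markers in the 8 cell type lists was at 0 counts over the 10 libraries. Among the stem and progenitor markers, Kit averaged 279.9 ± 43.3 CPM in females against 249 ± 59.4 in males (SD, n = 5 each), and Cd34 101 ± 17.8 against 112 ± 19.9 CPM. The sum over 10 stem and progenitor markers ran from 433 to 569 CPM in females and from 370.0 to 553 in males.

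None of the 6 response genes was called different between the sexes. By the quasi-likelihood test of edgeR, 0 of 6 had an adjusted p under 0.05. Of all genes tested 0.0545% did (8 genes), 0.0204% higher and 0.0341% lower in females. Before adjustment, at p under 0.05, the count was 1 of 6, Fkbp5, against 9.17% of all genes (3.76% higher and 5.41% lower in females). DESeq2 called 0 of 6 (0.337% of all genes, 0.219% higher in females) and limma voom with quality weights 0 of 6 (0.15% of all genes, 0.116% higher in females). With male replicates 1 and 2 left out, edgeR called 0 of 6 (0.0799% of all genes), and Fkbp5 alone was higher at an unadjusted p under 0.05 (3.65% of all genes). In no member did the 5 females lie all above or all below the 5 males, which was the case for 1.06% and 0.865% of all genes tested. Fold changes were positive in 4 genes and negative in 2, with a median log2 value of 0.12, while 48.0% of all genes tested had a positive value and their median was -0.01. In bulk RNA, fewer cells of a type and less RNA per cell cannot be told apart, and this holds for every level given here.

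**Figure D1:**
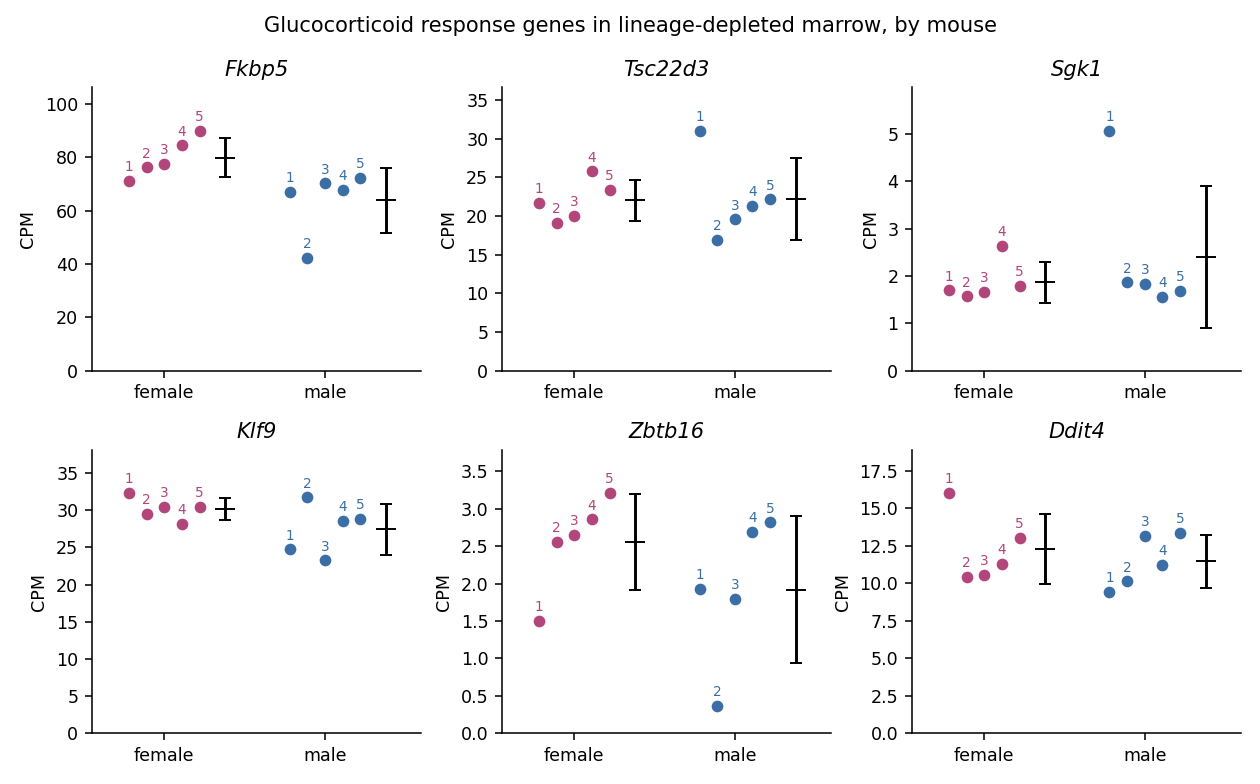
Level of each of the 6 genes in CPM (vertical axis, starting at 0) in 5 female and 5 male mice. Each point is 1 mouse with its replicate number, and the bar beside each group gives the mean and SD. Male replicate 1 stands above all other mice for Sgk1 and Tsc22d3, and male replicate 2 below them for Fkbp5, Tsc22d3 and Zbtb16.

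Per kilobase of exon, Fkbp5, Ddit4, Klf9 and Tsc22d3 formed a group of similar level, and Sgk1 and Zbtb16 lay far below them. The levels over the 10 mice were 7.59 ± 1.35 CPM per kb for Fkbp5 and 6.76 ± 1.14 for Ddit4 (SD, n = 10). They were 5.98 ± 0.598 CPM per kb for Klf9 and 5.09 ± 0.918 for Tsc22d3. Neighbours in this order were not separated beyond their spread, since Fkbp5 exceeded Ddit4 in 7 of 10 mice, Ddit4 exceeded Klf9 in 7 and Klf9 exceeded Tsc22d3 in 8. Tsc22d3 exceeded Sgk1 in 10 of 10 mice. Sgk1 was at 0.436 ± 0.220 and Zbtb16 at 0.423 ± 0.161 CPM per kb, and Sgk1 was the higher of the pair in 4 mice. The length used is the union of all annotated exons. Over the longest annotated transcript in its place, Fkbp5 was at 18.6 CPM per kb and stood apart from the group. Tsc22d3 came second at 7.68, followed by Ddit4 at 6.76 and Klf9 at 6.42 CPM per kb.

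Fkbp5, the co-chaperone of the receptor, showed the smallest p of the 6 genes. Fkbp5 (chromosome 17: 28399094 to 28517527, minus strand) was at 71.2, 76.2, 77.4, 84.5 and 90.0 CPM in female replicates 1 to 5. In male replicates 1 to 5 it was at 67.1, 42.2, 70.2, 67.6 and 72.2 CPM. Of the 5 females 4 lay above every male, and female replicate 1 lay between the males. The fold, female against male, was 1.25 (95% interval 1.01 to 1.54), a log2 value of 0.32 (SE 0.14), and it did not pass the edgeR test over all genes (adjusted p = 0.506). The lowest value belonged to male replicate 2, where deviations were most strongly related to exon length. The part of length in this value, or in the difference between the sexes, was not tested. Fkbp5 had the longest exon union of the 6 genes, 9468 bases. Its longest annotated transcript, 3858 bases, was shorter than those of Zbtb16 and Klf9. Without that library the 4 other males were at 69.3 ± 2.36 CPM (SD, n = 4), and the log2 fold change was 0.21 (SE 0.08, edgeR adjusted p = 0.635). The sums of erythroid and of megakaryocyte and platelet markers separated the sexes, and the part of these cell types in the Fkbp5 values was not tested.

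Tsc22d3, which encodes GILZ, had nearly equal means in the sexes. It lies on the X chromosome (140539528 to 140600659, minus strand), where 533 genes were tested and the median log2 fold change was -0.03. Tsc22d3 was at 21.7, 19.1, 19.996, 25.8 and 23.4 CPM in female replicates 1 to 5 and at 31.0, 16.9, 19.6, 21.3 and 22.1 CPM in male replicates 1 to 5. The highest and the lowest of the 10 mice were both males, replicates 1 and 2, and the females lay between them. The fold was 0.991 (95% interval 0.784 to 1.25, edgeR adjusted p = 0.970). The log2 value, -0.01, was 0.13 without male replicate 1 (edgeR adjusted p = 0.668), and also positive without female replicate 2 (0.033) or 3 (0.019).

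Sgk1, the kinase gene with the full receptor motif in 1 of its 6 promoter windows, was set apart in 1 male. Sgk1 (chromosome 10: 21882184 to 21999903, plus strand) was at 1.70, 1.57, 1.67, 2.63 and 1.80 CPM in female replicates 1 to 5. In male replicates 1 to 5 it was at 5.08, 1.87, 1.84, 1.56 and 1.69 CPM. The 121 counts of male replicate 1 give a 95% counting interval (exact Poisson, counting error only) of 4.21 to 6.07 CPM, above the interval of each other mouse. Female replicate 4, the next highest, had 59 counts and an interval of 2.01 to 3.40 CPM, which overlaps those of the 8 remaining mice. The other 4 males averaged 1.74 ± 0.141 CPM (SD, n = 4). The fold over all mice was 0.777 (95% interval 0.466 to 1.29, edgeR adjusted p = 0.600). Its log2 value changed from -0.36 to 0.10 without male replicate 1 (edgeR adjusted p = 0.838).

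Male replicate 1 was also the mouse with the highest sum of neutrophil markers. The sum does not tell stages of neutrophil maturation apart. The 10 neutrophil markers, none of them at 0, summed to 8729 CPM there and to 2698 CPM in male replicate 2, the next highest, where Sgk1 was at 1.87 CPM. Male replicate 5 had the lowest sum, 211 CPM, and an Sgk1 level of 1.69 CPM. Female replicate 4, the second highest for both Sgk1 and Tsc22d3, had a sum of 270.0 CPM. That sum lies below the median of the 10 mice. Summed erythroid markers were also highest in male replicate 1, at 47286 CPM (next 27320). So were B lineage (45.1, next 27.7) and T, NKT and NK markers (82.2, next 70.5). Of the T, NKT and NK sum in male replicate 1, 74.0 CPM came from Nkg7 alone. The mast cell and basophil, megakaryocyte and platelet, stem and progenitor, and stroma sums were highest in other mice. Whether RNA of neutrophils or of these other cell types set the levels of male replicate 1 was not tested.

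**Figure D2:**
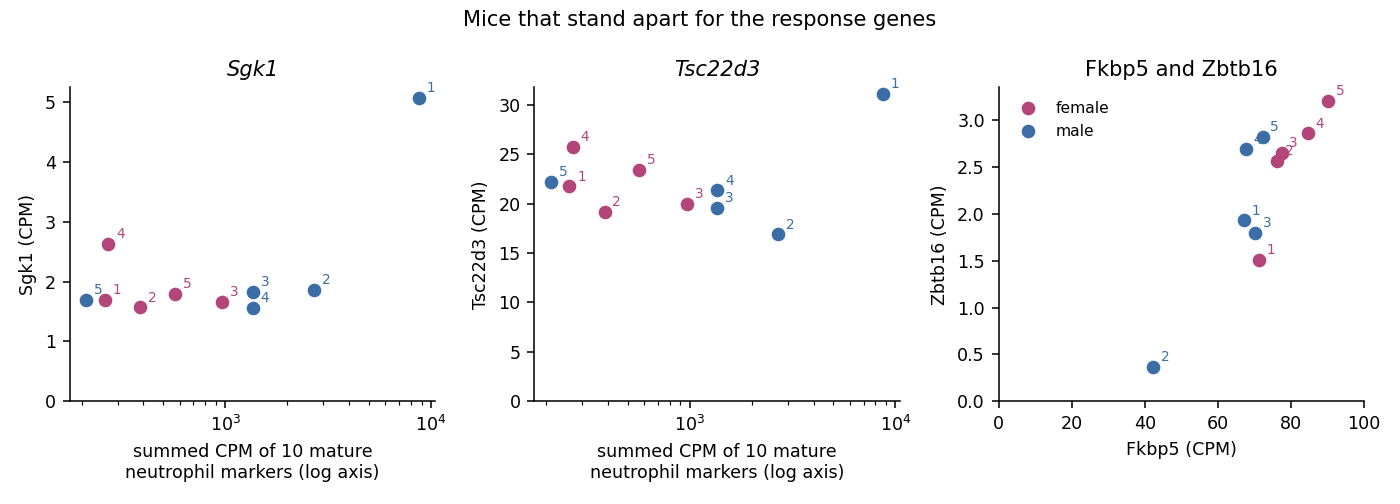
Left and centre, Sgk1 and Tsc22d3 in CPM (vertical axes) against the summed CPM of 10 neutrophil markers (horizontal log axis, labelled mature neutrophil), and right, Zbtb16 against Fkbp5 in CPM. Points are single mice with their replicate numbers. Male replicate 1 is highest on both axes of the first 2 panels, and male replicate 2 is lowest on both axes of the third.

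Klf9, a zinc finger factor that represses transcription at GC-rich sites, was the least variable of the 6 genes, with a coefficient of variation of 9.99% over the 10 mice. Klf9 (chromosome 19: 23141226 to 23168134, plus strand) was at 32.3, 29.5, 30.5, 28.1 and 30.5 CPM in female replicates 1 to 5. In male replicates 1 to 5 it was at 24.8, 31.7, 23.3, 28.5 and 28.8 CPM. The ranges overlapped, with male replicate 2 above 4 of the females. The fold was 1.10 (95% interval 0.948 to 1.28), a log2 value of 0.14 (SE 0.10, edgeR adjusted p = 0.530). Male replicate 2 was thus the highest male for Klf9 and the lowest male for Fkbp5, Tsc22d3 and Zbtb16.

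Zbtb16, the PLZF gene, had the widest range, 8.82-fold from lowest to highest mouse, and few counts. Zbtb16 (chromosome 9: 48654297 to 48836222, minus strand) was at 1.504, 2.56, 2.65, 2.86 and 3.21 CPM in female replicates 1 to 5. In male replicates 1 to 5 it was at 1.93, 0.364, 1.79, 2.69 and 2.82 CPM. Male replicate 2 had 7 counts, a 95% counting interval of 0.146 to 0.749 CPM that lies below the interval of every other mouse. The remaining mice of both sexes overlapped. The fold was 1.33 (95% interval 0.732 to 2.41), a log2 value of 0.41 (SE 0.39, edgeR adjusted p = 0.611). Without male replicate 2 the log2 value was 0.15 (edgeR adjusted p = 0.876). The 9 markers of T, NKT and NK cells, lymphocytes that include PLZF-expressing types, summed to 70.5 CPM in male replicate 2, above the 31.3 to 50.4 CPM of 8 other mice. Most of that sum was Nkg7, at 37.4 ± 6.14 CPM in females against 54.8 ± 13.8 in males (SD, n = 5 each).

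Ddit4, the mTORC1 inhibitor gene, had its highest level in female replicate 1. Ddit4 (chromosome 10: 59949669 to 59951834, minus strand) was at 16.0, 10.4, 10.6, 11.3 and 13.0 CPM in female replicates 1 to 5. In male replicates 1 to 5 it was at 9.44, 10.1, 13.1, 11.2 and 13.4 CPM. The sexes overlapped through most of their ranges. The fold was 1.07 (95% interval 0.850 to 1.35, edgeR adjusted p = 0.750). The log2 value of 0.10 was -0.02 without female replicate 1.

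**Figure D3:**
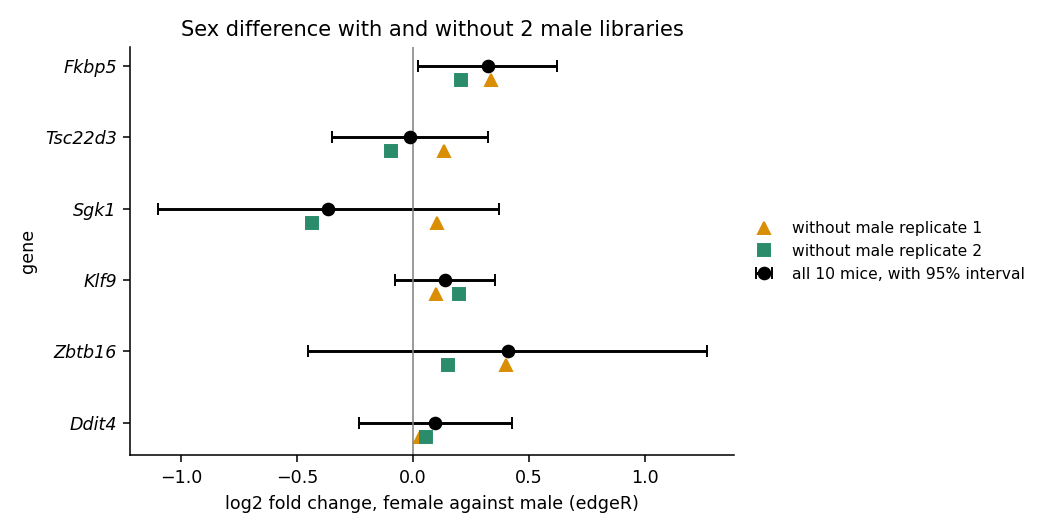
Log2 fold change of each gene, female against male, in edgeR (horizontal axis), with its 95% interval over all 10 mice (black). Triangles leave out male replicate 1 and squares male replicate 2. The interval of Fkbp5 lies just above 0, the other 5 include 0, and Sgk1 and Tsc22d3 change sign without male replicate 1.

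Few of the 6 genes were correlated from mouse to mouse. The highest mouse differed between genes, with male replicate 1 at the top for Sgk1 and Tsc22d3, female replicate 1 for Klf9 and Ddit4, and female replicate 5 for Fkbp5 and Zbtb16. Of the 15 pairs, 1 was correlated across the 10 mice at an adjusted p under 0.05 (permutation test with 100000 resamples, two-sided, Benjamini-Hochberg over the 15 pairs). Fkbp5 and Zbtb16 had a Pearson r of 0.930 (permutation p = 0.00203, adjusted p = 0.0305) and a Spearman rho of 0.746 (permutation p = 0.0182, adjusted p = 0.273). Without the 2 mice farthest from the median of Fkbp5, female replicate 5 and male replicate 2, r was 0.499. It was 0.63 without male replicate 2 alone. Leaving out mice at the ends of the range tends to lower r, so how far the relation rests on them stays unsettled. Tsc22d3 and Sgk1 came next, with r = 0.805 (permutation p = 0.00920, adjusted p = 0.0690) and rho = 0.418 (permutation p = 0.233, adjusted p = 0.735). Without male replicates 1 and 2, the mice farthest from the median of Tsc22d3, r was 0.751. The other 13 pairs had r between -0.515 and 0.476. With the mean of each sex subtracted, r was 0.955 for Fkbp5 and Zbtb16, 0.833 for Tsc22d3 and Sgk1, and between -0.637 and 0.570 for the other 13 pairs.

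**Figure D4:**
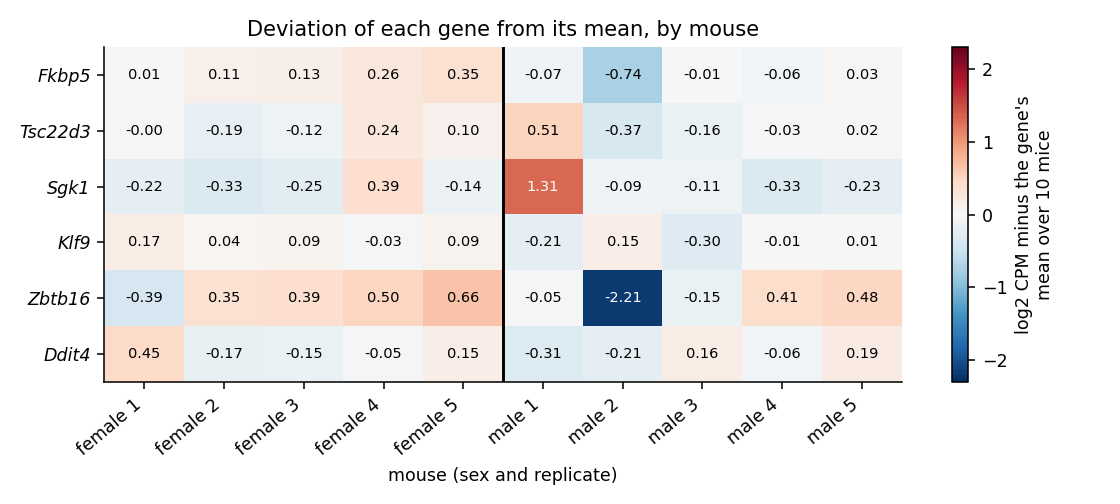
Log2 CPM of each gene (rows) minus its mean over the 10 mice, by mouse (columns, females left of the line). Red is above and blue below the mean, and the value is written in each cell. The 2 strongest deviations are Sgk1 in male replicate 1 (1.31) and Zbtb16 in male replicate 2 (-2.21).

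Among 11041 genes with a mean of at least 1 CPM, predicted genes and the members left out, those most like Fkbp5 across the 10 libraries were Ptpn1, St6galnac4, Slc39a14, Hyou1 and Tex2. Their likeness, the Pearson r of log2 CPM, lay between 0.970 and 0.980, and between 0.876 and 0.932 without male replicate 2. Ptpn1 encodes a tyrosine phosphatase and Hyou1 a chaperone of the endoplasmic reticulum, and Hyou1 averaged 237 ± 16.6 CPM in females against 178.5 ± 50.8 in males (SD, n = 5 each). Those most like Tsc22d3 were Vwa5a, Il10ra, Ugt1a7c, Galnt3 and Ugdh, with r between 0.945 and 0.964, and between 0.909 and 0.933 without male replicate 1. Il10ra, a subunit of the interleukin-10 receptor, averaged 8.29 ± 0.925 CPM in females against 8.34 ± 1.87 in males. Those most like the mean of the 6 genes were Nfkb2, Zfp59, Fut8, Nlrp1a and Zfp280c, with r between 0.917 and 0.934, and between 0.759 and 0.901 without male replicate 2. These r are descriptions over 10 libraries, with the top values picked out of all genes searched.

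The receptor and its chaperones gave no call either. Of 12 listed genes 11 were tested and 0 called by edgeR, with a median log2 fold change of 0.03. At an unadjusted p under 0.05 were 0 of them (9.17% of all genes tested). Nr3c1, the receptor gene, was at 89.8, 88.6, 97.4, 82.6 and 89.4 CPM in female replicates 1 to 5 and at 85.7, 59.9, 76.2, 87.4 and 86.2 CPM in male replicates 1 to 5. Of the females 4 lay above every male, and the lowest mouse was again male replicate 2 (log2 fold change 0.18, SE 0.11, edgeR adjusted p = 0.508). Nr3c2, the mineralocorticoid receptor gene, which also binds corticosterone, did not pass the filter, with means of 0.281 CPM in females and 0.208 in males. The chaperone gene Hsp90ab1 averaged 3751 ± 158 CPM in females against 3708 ± 245 in males, Hsp90aa1 1682 ± 156 against 1671 ± 214, and Hspa8 3769 ± 217 against 3349 ± 251. Fkbp4, the paralog of Fkbp5 with the opposite action on the receptor, averaged 568 ± 38.5 CPM in females against 542 ± 45.5 in males, a log2 fold change of 0.07 (SE 0.09).

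Enzymes that switch glucocorticoids on and off gave no call, and Hsd11b1 had a wide spread among males. Of 7 genes for steroid metabolism and export, 0 were called by edgeR. At an unadjusted p under 0.05, 1 was higher in females (3.76% of all genes tested) and 2 were lower (5.41%). Hsd11b1 encodes the enzyme that regenerates active hormone inside cells. It was at 2.77, 3.76, 3.55, 3.48 and 4.03 CPM in female replicates 1 to 5 and at 22.5, 7.63, 5.08, 6.09 and 2.53 CPM in male replicates 1 to 5. Of the males 4 lay above every female and male replicate 5 lay below every female. The summed neutrophil markers of male replicates 1 to 5 were 8729, 2698, 1362, 1363 and 211 CPM, in the same order as Hsd11b1, with replicates 3 and 4 nearly equal. In females the orders differed, since female replicate 3 had the highest neutrophil sum (967 CPM) and female replicate 5 (569 CPM) the highest Hsd11b1. Summed erythroid markers of male replicates 1 to 5, at 47286, 27320, 11665, 22762 and 10585 CPM, also followed the order of Hsd11b1. In females they did not, with the lowest erythroid sum (4292 CPM) in female replicate 5. The part of neutrophil or erythroid RNA in the Hsd11b1 values was not tested. The log2 fold change was -1.32 (SE 0.46, edgeR adjusted p = 0.506), and -0.60 without male replicate 1. Hsd11b2, which inactivates the hormone and was chosen here after its values were seen, averaged 1.55 ± 0.121 CPM in females against 0.866 ± 0.108 in males. For Hsd11b2 all 5 females lay above all 5 males, as in 1.06% of all genes tested (log2 fold change 0.83, edgeR adjusted p = 0.363). Abcb1b, a drug and steroid exporter, had a log2 fold change of -0.36, Cyp11a1, the first enzyme of steroid synthesis, of -0.36, and H6pd, which supplies cofactor to Hsd11b1, of 0.18, each with an edgeR adjusted p of at least 0.506.

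Other genes that glucocorticoids induce gave no call. Of 21 listed genes 19 were tested and 0 called by edgeR, with 6 positive and 13 negative fold changes and a median log2 value of -0.09, where 48.0% of all genes tested had a positive value. Without male replicates 1 and 2 the median was 0.00 (0.00328) and 10 were positive. The most abundant were Zfp36l2, an RNA-binding protein gene, at 298 ± 18.0 against 277 ± 41.8 CPM in females and males, the metallothionein gene Mt1 at 206 ± 14.0 against 207 ± 68.2 CPM, and the glutamine synthetase gene Glul at 151 ± 6.74 against 153 ± 13.9 CPM. At an unadjusted p under 0.05 were 4 of the 19 genes, all lower in females (5.41% of all genes tested), and named after their values were seen: Anxa1 (log2 fold change -1.39), Il1r2 (-1.82), Cebpd (-0.48) and Nfkbia (-0.40). Mature neutrophils express Anxa1 and Il1r2, and the part of the neutrophil-rich male replicate 1 in these values was not tested.

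Per1 and Dusp1, induced genes that also belong to the clock and to the immediate early response, lay on opposite sides of 0. Per1 lay higher in all 5 females than in any male, as did 1.06% of all genes tested (log2 fold change 0.72, SE 0.15, edgeR adjusted p = 0.285). DESeq2 and limma voom with quality weights called Per1 (adjusted p = 0.00908 and 0.0418). Dusp1, a phosphatase gene, was at 9.47 to 15.4 CPM in females and 15.9 to 24.7 CPM in males. All females thus lay below all males, as in 0.865% of all genes tested (log2 fold change -0.47, SE 0.17, edgeR adjusted p = 0.506). Immediate early genes, which handling of cells also induces, summed to 124 to 193 CPM in females and 173 to 187 CPM in males. Of those tested 8 of 8 had a negative fold change (median log2 value -0.16), where 48.0% of all genes tested had a positive value. At an unadjusted p under 0.05 was 1 of the 8, lower in females (5.41% of all genes tested). Zfp36, an RNA-binding protein gene of the same small list as Per1 and Dusp1, averaged 19.5 ± 2.58 against 25.4 ± 9.29 CPM. The most abundant immediate early genes were Ier2 (36.2 ± 4.29 against 42.6 ± 5.05 CPM), Jun (30.005 ± 6.60 against 32.7 ± 7.57) and Junb (28.3 ± 3.04 against 31.6 ± 2.14).

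Of 10 inflammatory genes that glucocorticoids repress, 5 passed the filter on low counts and 0 were called by edgeR. At an unadjusted p under 0.05 were 2, both lower in females (5.41% of all genes tested). All 5 had a negative fold change, where 48.0% of all genes tested had a positive value. Their median log2 value was -0.66. Without male replicates 1 and 2 the median was -0.36 and 1 of the 5 was positive. Il1b was highest in male replicate 1 (4.57 CPM), Ccl3 in male replicate 2 and Icam1 in male replicate 5. The part of neutrophil RNA in these values was not tested. The chemokine gene Ccl3 averaged 2.85 ± 0.987 CPM in females against 4.77 ± 1.72 in males, the adhesion gene Icam1 5.12 ± 1.21 against 6.05 ± 2.31, and the interleukin gene Il1b 1.09 ± 0.470 against 2.38 ± 1.38 (SD, n = 5 each).

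Genes around the individual members gave 0 calls by edgeR in each list. Of all genes tested 48.0% had a positive fold change. Values are given for females against males, as mean CPM ± SD (n = 5 each). Coregulators of the receptor had a positive fold change in 11 of 13 genes (median log2 value 0.28), led in level by Smarca4 (303 ± 24.3 against 264 ± 51.8 CPM), Ncor1 (201 ± 28.1 against 161 ± 50.9) and Carm1 (129 ± 15.5 against 98.2 ± 40.3). Their median was 0.02 without male replicates 1 and 2. Activators and substrates of the Sgk1 kinase were positive in 8 of 8 (median 0.15, and 0.05 without these males), among them Foxo3 at 158 ± 9.63 against 144 ± 38.04 CPM, Pdpk1 at 68.3 ± 6.19 against 61.6 ± 14.1 and Mtor at 66.5 ± 8.49 against 55.7 ± 18.8. Paralogs of the members were positive in 5 of 8 tested (median 0.05), with Tsc22d1 at 197 ± 29.3 against 175 ± 45.4 CPM and Klf13 at 161 ± 15.8 against 158 ± 34.0 CPM. Other brakes of mTORC1 had a median of -0.04 over 11 tested genes, with Tsc2 at 121 ± 14.1 against 101 ± 27.9 CPM, Akt1s1 at 51.5 ± 4.79 against 50.2 ± 2.07 and Sesn1 at 34.5 ± 3.49 against 36.7 ± 5.61. Stress pathways that also induce Ddit4 had medians of -0.07 (integrated stress response, 5 tested) and -0.15 (hypoxia response, 6 tested). In the former Asns averaged 257 ± 24.6 against 234 ± 20.3 CPM, Phgdh 239 ± 33.4 against 251 ± 19.1 and Atf4 147 ± 14.0 against 158 ± 24.0, and in the latter Pdk1 103 ± 3.70 against 101 ± 12.4, Egln3 10.5 ± 2.22 against 11.3 ± 2.44 and Slc2a1 8.01 ± 0.787 against 9.22 ± 1.58. At an unadjusted p under 0.05 there was 1 gene in these 6 lists, where 9.17% of all genes tested were. It was Mlst8, a subunit shared by the mTOR complexes (log2 fold change 0.30), named after its value was seen.

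**Figure D5:**
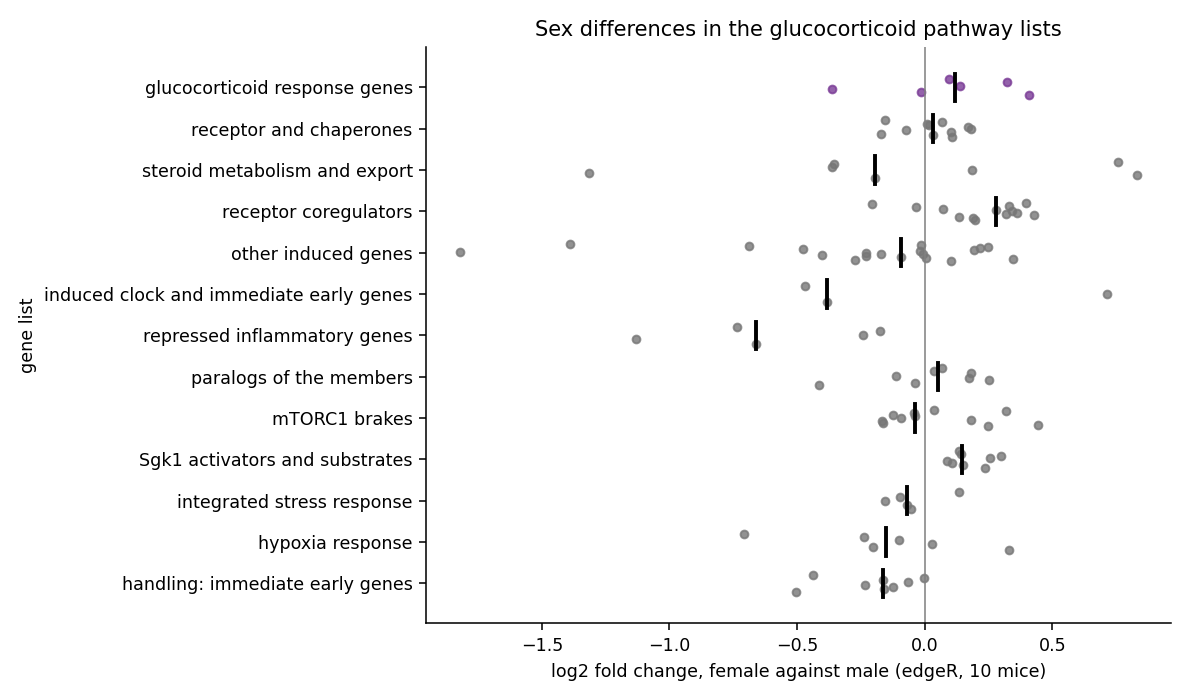
Log2 fold change, female against male, in edgeR over 10 mice (horizontal axis) for each tested gene of 13 lists (rows), with the 6 response genes in purple. Each dot is a gene and the black bar is the median of the list. The response genes have a median of 0.12, the other induced genes of -0.09 and the repressed inflammatory genes of -0.66.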

How the data were processed

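Bulk RNA-seq of lineage-depleted marrow was analysed for 10 mice, grouped by sex as the titles give it. The authors deposited raw read counts per Ensembl gene and a table of normalized values (signal), which in each library were the count divided by 1 size factor; the submitters' processing notes name STAR, featureCounts, DESeq, GRCm38.p6 and mm10, and no source used here gives the strand setting. No exon of the 6 genes overlaps an exon of another gene in GENCODE vM21, which gave symbols, coordinates and lengths for 25116 of 25178 genes by identifier. Promoter sequences are RefSeq's for GRCm38.p6.

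Genes were filtered with filterByExpr by sex, scaled by TMM and tested with the robust quasi-likelihood test of edgeR 4.0.16 (R 4.3.3), with sex as the only term and Benjamini-Hochberg adjustment over 14674 genes, called at an adjusted p under 0.05. The SE is the log2 fold change divided by the square root of F, and the 95% interval uses the test's degrees of freedom. Log2 CPM has a prior count of 2. Alternatives used DESeq2 1.42.0, limma 3.58.1, other scaling and filters, the replicate number as a block, and fewer libraries. The fit was also tried on counts simulated for this comparison (14485 genes fitted). It recovered 84% of 100 genes with a true log2 change of 1 and 99% of 100 with a change of 2. Of its 195 calls 12 were false. The changed genes were drawn only from those above a set mean count, and no change under 1 was simulated. With only 8 calls in the data, an adjusted p under 0.05 was harder to reach there. These shares therefore do not give the recovery of changes as small as those of the members.

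The members, lists and alternatives were chosen with earlier results of these data known. The rule for names took the members, the 3 most abundant and every called gene of each pathway list, the 2 most abundant of each marker list (several of these are left out of the text), Nr3c1, Nr3c2, Hsd11b1, Per1 and Dusp1, and the 5 genes most like Fkbp5, Tsc22d3 and the members' mean; other names were chosen after their values were seen. Total counts were between 20754101 and 24759687 per library.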

Additional observations from a re-analysis of the deposited data

Results flagged for a closer look

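Within a sex, single mice were searched for by Dixon's criterion (critical value 0.71 for 5 mice) in the 6 response genes and in the summed levels of 8 cell type lists and the immediate early list, 30 groups in all. For normally distributed values chance flags about 1 in 20 groups, or 1.5 here, and 4 were found. Whether CPM values are distributed in this way was not tested, so the 4 cannot be read as an excess. Fkbp5 was at 42.2 CPM in male replicate 2, against 67.1 to 72.2 CPM in the other males. Sgk1 was at 5.08 CPM in male replicate 1, against 1.56 to 1.87 CPM in the other males. Sgk1 was at 2.63 CPM in female replicate 4, against 1.57 to 1.80 CPM in the other females. Summed stroma markers were at 2754 CPM in male replicate 5, against 362 to 845 CPM in the other males, and the response genes of that mouse lay inside the range of the other 9 mice.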

How the results depend on the processing

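None of the 6 response genes was called under any of the 18 alternatives, and the positive sign of Fkbp5 (log2 fold change 0.19 to 0.39), Klf9 (0.08 to 0.22) and Zbtb16 (0.07 to 0.58) held in all of them. The adjusted p of Fkbp5 lay between 0.323 and 0.824. Leaving out each library in turn moved Tsc22d3 between -0.093 and 0.13, Sgk1 between -0.52 and 0.10 and Ddit4 between -0.016 and 0.16, and the number of response genes at an unadjusted p under 0.05 between 0 and 2. Without male replicates 1 and 2, Tsc22d3 was at 0.064, Sgk1 at 0.14 and Ddit4 at -0.039. Tsc22d3 was at 0.060 without TMM scaling, and Ddit4 at -0.061 in limma voom with quality weights. The cause of these changes was not tested. Genes called higher in females numbered 3 in edgeR, 39 in DESeq2, 17 in limma voom, 7 without male replicates 1 and 2 and 2 to 5 when leaving out 1 library. Genes called lower numbered 5 in edgeR, 21 in DESeq2 and 4 to 5 in the other alternatives. Of the pathway lists 1 gene, Per1, was called in DESeq2 and in limma voom and 0 in the others. Without male replicates 1 and 2, 0 pairs of response genes were correlated (Fkbp5 and Zbtb16 r = 0.579, adjusted p = 0.557), and with the authors' deposited normalized values 1 pair was.

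The deviations of same-numbered mice correlated between -0.302 and -0.0071, and 0 of 5 females correlated best with the male of their number. Expression thus showed no pairing by replicate number, which cannot exclude a pairing that the labels do not give. With the replicate block 1 gene was called higher in females, Tsc22d3 was at 0.0098, and the block changed no call of a response gene. Sgk1 and Zbtb16 rest on few counts (492 and 523 over the 10 libraries), which limits their precision.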
